A study of Arabidopsis thaliana with 9 samples.

Results

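The WRKY transcription factor family of Arabidopsis thaliana was measured as 56 genes, taken by their locus codes from a count table of 32833 loci. The symbols of 56 of 56 members matched RefSeq, and the members fall into 9 genes of group III and 47 genes of the other subgroups (I, IIa, IIb, IIc, IId and IIe). The libraries came from whole wild-type Col-0 seedlings that grew for 5 days on solid medium, then for 5 days in liquid medium. One group of 3 libraries received 2'-aminoacetophenone (2-AA) at 200 uM, a volatile compound made by the bacterium Pseudomonas aeruginosa. A second group of 3 libraries received flg22 at 100 nM, a peptide of bacterial flagellin that plants recognise through the receptor kinase FLS2. The third group of 3 libraries was mock and is labelled as untreated, and no mutant or transgene was used in any group. How long the treatments lasted, when seedlings were harvested and how mock seedlings were handled is not given here. Nothing states that the libraries of a group came from separate cultures, so a p-value speaks to the spread among the libraries sequenced, which may be technical.

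WRKY proteins carry a DNA-binding domain named after its conserved amino acid stretch, and most of them recognise the W box, a short promoter motif with the core TTGAC. Several members are known as relays of immune signalling: a flagellin signal passes through a mitogen-activated protein kinase cascade to WRKY22 and WRKY29, and WRKY33 is phosphorylated by MPK3 and MPK6. Group III, which has a zinc finger of its own type, holds WRKY70, WRKY54, WRKY38, WRKY62, WRKY46 and WRKY53, known for roles in salicylic acid signalling, basal defence and leaf senescence. Many WRKY genes are themselves targets of WRKY proteins.

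The libraries held between 26644996 and 33195007 counts each. Levels are given as CPM, counts scaled to a common library size with edgeR's trimmed mean of M-values (TMM). A gene counts as called where the adjusted p of edgeR's quasi-likelihood test, taken over all 21059 genes tested with 3 libraries in each group, lies under 0.05. Chloroplast genes took 0.241%, 0.0743% and 0.0980% of the counts in 2-AA replicate 2, flg22 replicate 2 and mock replicate 3, against 0.0211% to 0.0281% in the other libraries. Shoot and root markers were present in every group. The summed level of the 6 shoot markers was 19953 to 22909 CPM with 2-AA, 21652 to 24441 CPM with flg22 and 28452 to 28778 CPM in mock, and that of the 6 root markers was 1637 to 1806, 1257 to 1635 and 1796 to 2108 CPM in the same order. Of the 10 clock genes examined, each treatment called 6 as higher and 3 as lower against mock. Over all genes tested, 62.2% were called with 2-AA and 59.2% with flg22 against mock. CCA1, a morning transcription factor of the clock, had means of 2.86 CPM with 2-AA, 5.02 CPM with flg22 and 142 CPM in mock. Between 2-AA and flg22, edgeR and DESeq2 called 0 of the 10 clock genes and limma-voom 1, with 4 at an unadjusted p under 0.05 and 4 called without 2-AA replicate 3. Of all genes, edgeR called 15.8% between these treatments. Of the shoot markers, 5 were called lower with 2-AA and 3 with flg22 than in mock, and of the root markers 1 and 6. Over all genes, 31.1% were lower with 2-AA and 29.4% with flg22 than in mock. Without 2-AA replicate 1 the shoot count with 2-AA was 3. The shoot count with flg22 was 2 without mock replicate 1, 2 or 3, flg22 replicate 3 or 2-AA replicate 1. The root count with 2-AA was 0 without mock replicate 3 and 2 without flg22 replicate 2, while the root count with flg22 fell to 4 without mock replicate 2 or flg22 replicate 2. Between the treatments, 2 shoot markers were lower and 3 root markers higher with 2-AA than with flg22, against 7.89% of all genes lower and 7.86% higher. Leaving out each library gave 1 to 3 called shoot markers, with 1 in 6 of the 9 cases and 3 without flg22 replicate 3, and 2 to 4 called root markers, with 2 without 2-AA replicate 2. The part of the clock and tissue differences in the WRKY results was not tested, and in whole seedlings fewer cells of a type and less RNA per cell cannot be told apart.

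Most WRKY genes stood higher in both kinds of treated seedlings than in mock seedlings. The summed level of the 56 genes was 1343, 1439 and 1268 CPM with 2-AA, 1200, 1118 and 980 CPM with flg22, and 606, 587 and 656 CPM in mock. All 6 treated libraries lay above all 3 mock libraries, and every 2-AA library lay above every flg22 library. Of the members, 54 passed the filter on low counts, and WRKY41 and WRKY55 of group III did not.

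With 2-AA, 34 of the 54 tested members were higher than in mock and 2 were lower. Over all genes tested, 62.2% were called in that comparison, with 31.2% of all genes higher and 31.1% lower. The share of members called in either direction, 66.7%, was thus near that of all genes, while the direction was mostly upward. The members' median log2 fold change was 0.86, against -0.003 over all genes, and 24 members rose at least 2-fold, against 10.1% of all genes. The libraries of the 2 groups did not overlap for 39 of 54 members, against 67.9% of all genes.

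With flg22, 37 of the 54 members were higher than in mock and 3 were lower, where 59.2% of all genes were called, with 29.8% higher and 29.4% lower. The libraries of these groups did not overlap for 41 of 54 members, against 65.5% of all genes. The members' median was 0.91 on the log2 scale, against -0.004 over all genes. At least 2-fold rises were called for 24 members, against 9.26% of all genes, and at least 2-fold falls for 3 members, against 9.71% of all genes. Both the 37 and the 24 include WRKY38 and WRKY62, which passed the filter on low counts through their flg22 libraries and are no support for these counts. Both comparisons use the same 3 mock libraries, so their likeness is not independent evidence. Set side by side, 31 members were called higher in both, WRKY44 was called lower in both, 4 were called with 2-AA alone, 8 with flg22 alone and 10 in neither. No member was called in opposite directions. The shares of all genes in these joint classes were not counted, so these numbers describe the members alone. A call in one comparison and not in the other does not show a difference between treatments. Of those 12 members 6 were called when 2-AA was set against flg22 directly, where 15.8% of all genes were called. These were WRKY13, WRKY18, WRKY38, WRKY40, WRKY62 and WRKY70. WRKY38 and WRKY62 are again no support, for the reason given above. The direct calls of WRKY13, WRKY18 and WRKY40 did not hold whichever single library was left out.

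**Figure D1:**
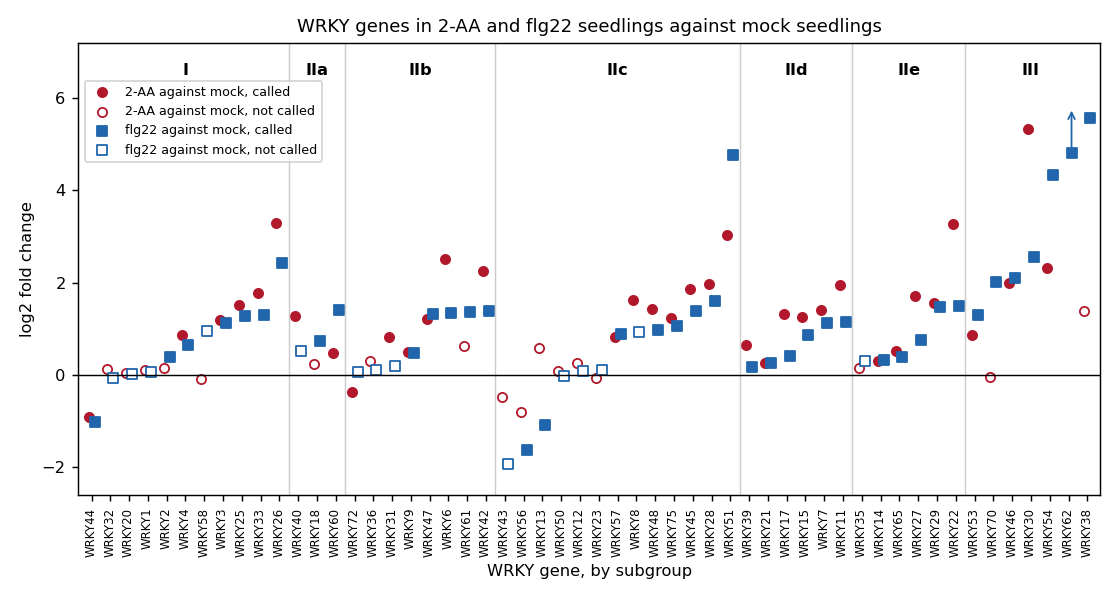
Log2 fold change (vertical axis) of the 54 tested WRKY genes with 2-AA (red circles) and with flg22 (blue squares) against mock, grouped by subgroup; filled symbols were called at an adjusted p under 0.05. Most symbols lie above 0, and WRKY62 is drawn at its lower bound with flg22 (arrow) and without a 2-AA value, since 2-AA and mock libraries both held 3 counts or fewer.

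The direct comparison of 2-AA with flg22 separated 18 members, of which 11 were higher and 7 lower with 2-AA. Over all genes tested, 15.8% were called there (7.86% higher and 7.89% lower), against 33.3% of the WRKY members. The 11 higher members were WRKY30, WRKY22, WRKY13, WRKY6, WRKY27, WRKY17, WRKY26, WRKY11, WRKY40, WRKY39 and WRKY15, in order of log2 fold change between 2.78 and 0.39. The 7 lower ones were WRKY62, WRKY38, WRKY70, WRKY54, WRKY51, WRKY60 and WRKY18, between -5.09 and -0.50. At least 2-fold differences were called for 4 higher members, against 1.68% of all genes, and for 5 lower ones, against 1.48%. Both the 7 and the 5 lower members include WRKY38 and WRKY62, which passed the filter on low counts through their flg22 libraries. That these genes were lower with 2-AA was therefore partly fixed by the filter, and it is no support for these counts. Of the 18 calls, 15 held whichever single library was left out, and those of WRKY13, WRKY18 and WRKY40 did not.

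**Figure D2:**
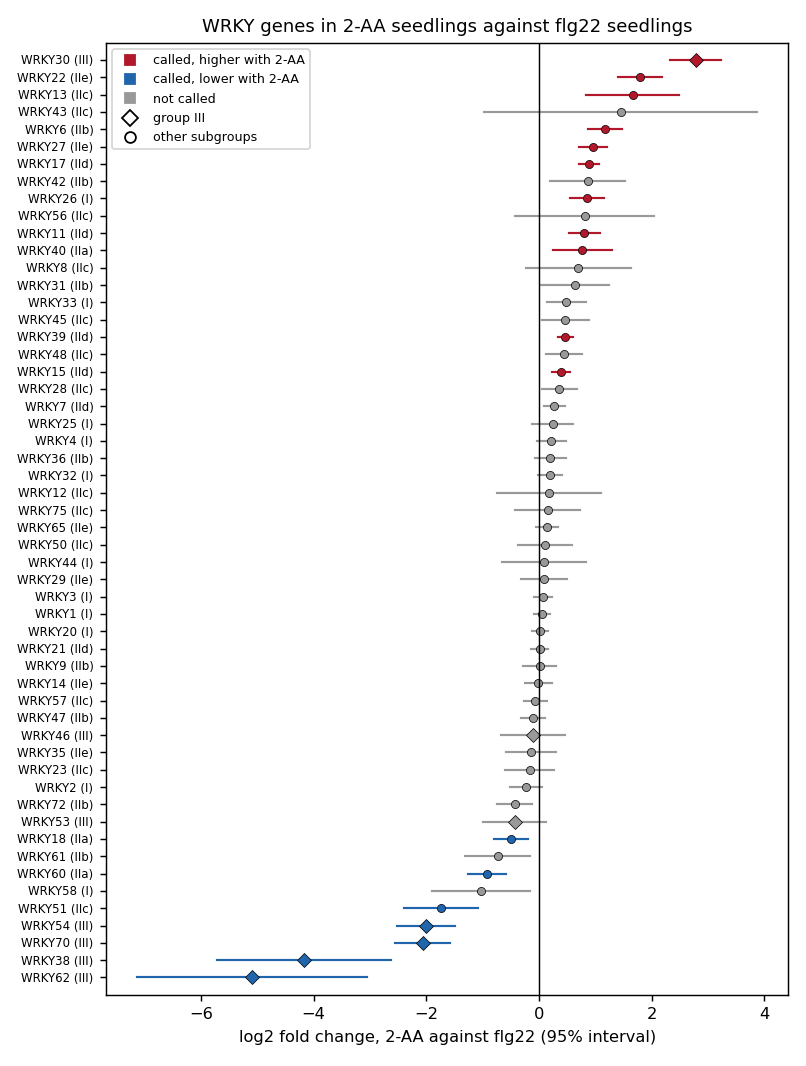
Log2 fold change with its 95% interval (horizontal axis) of 2-AA against flg22 for the 54 tested WRKY genes, with group III as diamonds and other subgroups as circles; red is called higher with 2-AA, blue called lower and grey not called. Group III lies at both ends, with WRKY30 at 2.78 and WRKY54, WRKY70, WRKY38 and WRKY62 between -2.00 and -5.09; the WRKY62 estimate rests on 2 counts with 2-AA against 79 with flg22.

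Group III held both the member that stood highest with 2-AA relative to flg22 and the 4 members that stood lowest. Of its 7 tested members, 4 were higher with 2-AA than in mock and 3 were not called, while 7 of 7 were at least 2-fold higher with flg22 than in mock. Over all genes, 31.2% were higher with 2-AA than in mock. With flg22, 29.8% of all genes were higher than in mock and 9.26% at least 2-fold higher. Directly between the treatments, WRKY30 was higher with 2-AA, WRKY38, WRKY54, WRKY62 and WRKY70 were lower, and WRKY46 and WRKY53 were not called. The median log2 fold change of the 7 members was -2.00 with 2-AA against flg22, while that of the 47 other members was 0.20, with 10 higher, 3 lower and 34 not called. In that comparison 7.86% of all genes were higher and 7.89% lower. Against mock, the group III median was 2.00 with 2-AA and 2.55 with flg22, while the other members had medians of 0.81 and 0.73. WRKY38 and WRKY62 passed the filter through their flg22 libraries, with at least 10 counts in 3 of 3 flg22 libraries but in 1 and 0 of the 2-AA libraries and in 0 mock libraries. That these 2 were high with flg22 was therefore partly fixed by the filter, and it is no support for the counts over the group. Of the other 5 tested members, 4 were higher with 2-AA and 5 with flg22 than in mock, and between the treatments 1 was higher with 2-AA, 2 were lower and 2 were not called. Their medians were 2.00, 2.11 and -0.43 for 2-AA against mock, flg22 against mock and 2-AA against flg22. The last of these was nearer 0 than the group's -2.00. A median of 7 values shifts when any 2 of its 4 lower members are left out. The shift is therefore not particular to WRKY38 and WRKY62, and the group's -2.00 depends on few genes. No test of group III against the other subgroups was made, and these medians describe the genes listed. The summed level of the 9 genes was 41.1 ± 2.02 CPM with 2-AA, 68.6 ± 19.5 CPM with flg22 and 15.2 ± 1.58 CPM in mock (SD, n = 3 each), which is 3.05%, 6.24% and 2.47% of the family's summed level.

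WRKY30 (AT5G24110), a gene induced by oxidative stress, had 22.3, 17.1 and 15.6 CPM with 2-AA, 2.82, 2.68 and 2.5 CPM with flg22, and 0.268, 0.365 and 0.724 CPM in mock. Its 3 groups did not overlap, and the lowest 2-AA library was far above the highest flg22 library. The log2 fold change was 5.33 ± 0.26 (SE, adjusted p = 2.19e-09) with 2-AA against mock and 2.55 ± 0.28 (adjusted p = 4.76e-06) with flg22 against mock. Set against flg22, 2-AA gave 2.78 ± 0.21 (adjusted p = 2.65e-06), a 6.87-fold difference. WRKY22, the largest rise with 2-AA over flg22 outside group III, is described with subgroup IIe.

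The 250 bases before the annotated gene starts of these 2 genes are shown because they head the list of members higher with 2-AA, and because W boxes in WRKY promoters are the sites through which WRKY proteins are known to act on one another. Both lie on the minus strand of the RefSeq assembly TAIR10.1, at chr5:8154711-8154960 for WRKY30 and chr4:524250-524499 for WRKY22, and are written 5′ to 3′ with the letters TTGACC or TTGACT, or their reverse complements, in capitals.
WRKY30: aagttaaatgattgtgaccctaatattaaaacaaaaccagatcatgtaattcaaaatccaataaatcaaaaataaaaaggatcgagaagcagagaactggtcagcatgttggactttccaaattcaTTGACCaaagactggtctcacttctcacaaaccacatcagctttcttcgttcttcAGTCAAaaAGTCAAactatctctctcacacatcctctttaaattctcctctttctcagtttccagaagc
WRKY22: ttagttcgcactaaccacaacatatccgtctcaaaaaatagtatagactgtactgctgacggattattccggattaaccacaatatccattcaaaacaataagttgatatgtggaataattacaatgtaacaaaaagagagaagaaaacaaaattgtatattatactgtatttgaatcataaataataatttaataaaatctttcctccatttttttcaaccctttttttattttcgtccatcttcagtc
The WRKY30 window held 3 such matches, whose first bases lie 124, 69 and 61 bases before the gene start, and the WRKY22 window held none. A match is a description of letters and not a binding site, and its absence concerns this window alone.

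The 4 members of group III that were lower with 2-AA than with flg22 differed in how they stood against mock. WRKY70 (AT3G56400), which promotes salicylic acid responses and restrains jasmonate responses, had 7.59, 9.37 and 10.2 CPM with 2-AA, 51.8, 29.1 and 32.5 CPM with flg22, and 8.54, 12.0 and 7.33 CPM in mock. The 2-AA and mock libraries overlapped, and all flg22 libraries stood above both. Its log2 fold change was -0.04 with 2-AA against mock (95% interval -0.53 to 0.46, adjusted p = 0.902), 2.02 ± 0.22 with flg22 against mock (adjusted p = 4.43e-06) and -2.06 ± 0.22 with 2-AA against flg22 (adjusted p = 4.8e-05).

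WRKY54 (AT2G40750), a close relative that acts with WRKY70, had 2.36, 2.86 and 2.28 CPM with 2-AA, 12.95, 8.32 and 8.73 CPM with flg22, and 0.736, 0.426 and 0.329 CPM in mock. Here the 3 groups did not overlap and 2-AA lay between flg22 and mock. The log2 fold change was 2.32 ± 0.30 with 2-AA against mock (adjusted p = 1.69e-05), 4.33 ± 0.29 with flg22 against mock (adjusted p = 4.31e-08) and -2.00 ± 0.24 with 2-AA against flg22 (adjusted p = 0.000104).

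WRKY38 (AT5G22570) and WRKY62 (AT5G01900), a pair known as negative regulators of basal defence, were close to the limit of detection outside flg22 seedlings. WRKY38 had 0.319, 0.0762 and 0.123 CPM with 2-AA, 5.31, 2.82 and 1.62 CPM with flg22, and 0.201, 0 and 0 CPM in mock. Each flg22 library was above all others, and the 2-AA and mock libraries overlapped. With flg22 against mock the log2 fold change was 5.56 ± 0.82 (adjusted p = 6.33e-05), with 2-AA against flg22 it was -4.17 ± 0.71 (adjusted p = 0.00148), and with 2-AA against mock it was 1.39 ± 1.09 (adjusted p = 0.288). Mock replicate 1 held all 6 mock counts of WRKY38. Without it the level was at least 69.3-fold higher with flg22 and at least 3.75-fold higher with 2-AA than in mock, taking 3 counts over the group as the floor, and the 2-AA difference was then called (adjusted p = 0.0268). Without 2-AA replicate 1 the difference between 2-AA and flg22 was -4.94 on the log2 scale (adjusted p = 0.00451).

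WRKY62 had 0.0638, 0 and 0 CPM with 2-AA, 1.41, 0.651 and 0.609 CPM with flg22, and 0 CPM in all 3 mock libraries. Counted over each group, these were 2 counts with 2-AA, 79 with flg22 and 0 in mock. WRKY62 was at least 28-fold higher with flg22 than in mock on the same floor (adjusted p = 0.000244), and 18.1-fold to 32.6-fold was the range of that bound when a mock or flg22 library was left out. It was 40.5-fold lower with 2-AA than with flg22 (95% counting interval 10.9 to 341, adjusted p = 0.00355). Without 2-AA replicate 1, which held both 2-AA counts, it was at least 17.6-fold lower. Between 2-AA and mock no fold is given, since both were at or under the floor.

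The windows before the gene starts of the 4 members lower with 2-AA are shown for comparison with that of WRKY30, in the same format and from the same assembly, all on the minus strand. They lie at chr5:352096-352345 for WRKY62, chr5:7496991-7497240 for WRKY38, chr2:17002529-17002778 for WRKY54 and chr3:20910624-20910873 for WRKY70.
WRKY62: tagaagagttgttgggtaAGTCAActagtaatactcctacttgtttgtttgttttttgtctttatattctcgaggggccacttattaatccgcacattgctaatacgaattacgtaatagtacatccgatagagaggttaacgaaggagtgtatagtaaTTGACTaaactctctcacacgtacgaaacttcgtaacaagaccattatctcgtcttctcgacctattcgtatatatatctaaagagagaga
WRKY38: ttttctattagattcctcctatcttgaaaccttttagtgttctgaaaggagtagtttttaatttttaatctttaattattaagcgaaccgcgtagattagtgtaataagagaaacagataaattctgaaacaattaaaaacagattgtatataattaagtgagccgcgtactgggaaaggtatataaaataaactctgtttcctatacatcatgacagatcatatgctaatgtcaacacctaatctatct
WRKY54: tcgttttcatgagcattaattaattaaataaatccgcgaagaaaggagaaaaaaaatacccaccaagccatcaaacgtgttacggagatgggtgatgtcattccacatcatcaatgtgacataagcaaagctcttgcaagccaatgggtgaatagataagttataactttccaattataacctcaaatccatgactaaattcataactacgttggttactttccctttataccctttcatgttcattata
WRKY70: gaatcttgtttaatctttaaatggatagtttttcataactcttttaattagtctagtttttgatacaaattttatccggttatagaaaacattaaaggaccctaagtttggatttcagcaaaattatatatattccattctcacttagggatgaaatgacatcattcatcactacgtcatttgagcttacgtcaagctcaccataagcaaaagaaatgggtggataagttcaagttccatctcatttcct
WRKY62 held 2 matches, with first bases 232 and 91 bases before the gene start, and the windows of WRKY38, WRKY54 and WRKY70 held none. Genes at both ends of the direct comparison thus had windows with and without these letters. The core TTGAC by itself, on either strand, was present in the windows of WRKY38 and WRKY70 but not in those of WRKY54 and WRKY22.

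Across the family, 21 of 56 windows held at least 1 match (37.5%), against 28.4% of 27443 protein-coding genes, and 10 held 2 or more (17.9%), against 6.18%. Both strands were searched for TTGACC and TTGACT, which share the core TTGAC. The windows of WRKY7, WRKY25, WRKY26, WRKY45 and WRKY61 overlapped another annotated gene, and those of WRKY25, WRKY26 and WRKY45 held matches. Such overlaps were not counted for all protein-coding genes. In group III, 5 of 9 windows held at least 1 match and 4 held 2 or more. The core TTGAC by itself was present in 8 of these 9 windows (88.9%). Among the other members that share was 48.9%, and among all protein-coding genes it was 44.9%. Among tested members, the median log2 fold change with 2-AA against mock was 0.64 for the 35 members with no match, 0.86 for the 10 with 1 match and 1.56 for the 9 with 2 or more. With flg22 against mock the medians were 0.76, 0.77 and 1.3 in the same order, and with 2-AA against flg22 they were 0.06, 0.19 and 0.39. The class with 2 or more matches includes WRKY62, for which no fold between 2-AA and mock is given above. WRKY62 also passed the filter through its flg22 libraries, and medians of this class without it were not taken. These medians are descriptions without a test, and each class ranged widely.

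WRKY46 and WRKY53 were called higher than in mock with both treatments, and neither was called between the treatments. WRKY46 (AT2G46400), which acts with WRKY54 and WRKY70 in brassinosteroid and drought responses, had 3.00, 4.23 and 4.44 CPM with 2-AA, 5.15, 4.77 and 2.64 CPM with flg22, and 1.14, 0.852 and 0.921 CPM in mock. The treated libraries overlapped with each other and lay above mock. Its log2 fold change was 2.00 ± 0.29 with 2-AA (adjusted p = 5.01e-05) and 2.11 ± 0.29 with flg22 (adjusted p = 3.53e-05), and between the treatments -0.11, with a 95% interval of -0.67 to 0.46.

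WRKY53 (AT4G23810), a regulator of leaf senescence, had 7.18, 7.58 and 6.32 CPM with 2-AA, 11.4, 9.11 and 7.92 CPM with flg22, and 2.61, 2.95 and 6.08 CPM in mock. One mock library lay just under the lowest 2-AA library, and no groups overlapped. The log2 fold change was 0.86 ± 0.27 with 2-AA against mock (adjusted p = 0.0133), a call lost without mock replicate 1 (adjusted p = 0.0565) or mock replicate 2 (adjusted p = 0.0585). With flg22 against mock it was 1.29 ± 0.26 (adjusted p = 0.000949), and between the treatments -0.43 (95% interval -0.99 to 0.12). WRKY53 shares 311 exon bases with AT4G23800 on the opposite strand, at means of 62.4 CPM with 2-AA, 74.2 CPM with flg22 and 62.1 CPM in mock. Whether counting used strand is not given, so reads of the pair may not be told apart.

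The remaining group III genes, WRKY41 and WRKY55, had fewer than 10 counts in every library and did not pass the filter. WRKY41, linked to resistance and seed dormancy, had 0, 2 and 0 counts with 2-AA, 0, 2 and 8 counts with flg22 and 0 in each mock library, and shares 491 exon bases with AT4G11080 on the opposite strand. On the floor of 3 counts over the group it was at least 3.54-fold higher with flg22 than in mock (bounds of 2.29 without mock replicate 2 to 5.43 without flg22 replicate 1), and it was 5.13-fold lower with 2-AA than with flg22 (95% counting interval 1.09 to 48.2). Fitted without the filter, neither difference was called (adjusted p = 0.0809 and 0.486). WRKY55, a neighbour of WRKY54 at a distance of 919 bases, had 9, 0 and 0 counts with 2-AA, 6, 4 and 6 with flg22 and 2, 4 and 2 in mock. In the fit without the filter its adjusted p was 0.922 with 2-AA against mock, 0.472 with flg22 against mock and 0.698 with 2-AA against flg22.

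**Figure D3:**
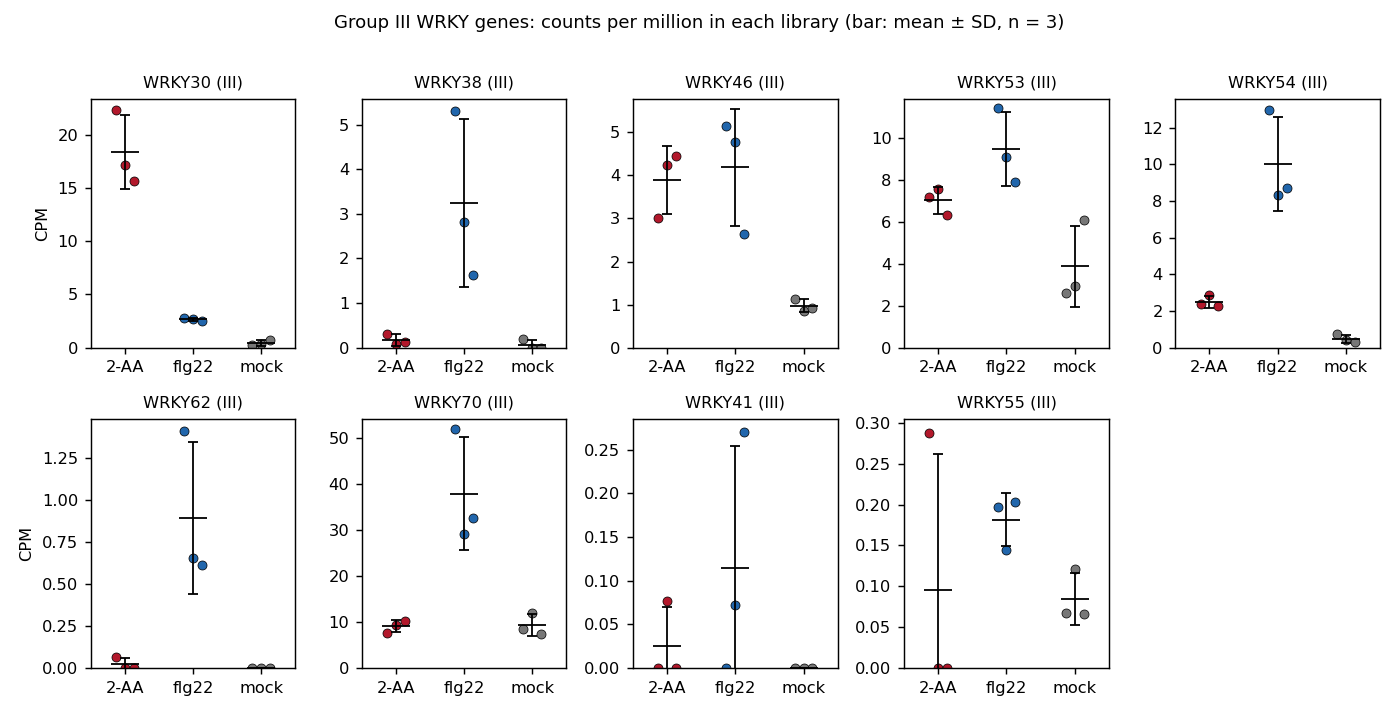
CPM (vertical axis, from 0, scaled per gene) of the 9 group III genes in each library with 2-AA, flg22 and mock; points are libraries, the line is the mean and the bar the SD (n = 3), with bars that would pass below 0 ending at the axis. WRKY30 is highest in the 3 2-AA libraries, WRKY38, WRKY54, WRKY62 and WRKY70 are highest in the 3 flg22 libraries, and flg22 replicate 1 is the highest flg22 library for each of these 4 genes.

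Subgroup IIe holds the best known flagellin-responsive pair, WRKY22 and WRKY29. Of its 6 members, 5 were higher than in mock with each treatment and WRKY35 was called in neither. The shares of all genes higher than in mock were 31.2% with 2-AA and 29.8% with flg22. Between the treatments, WRKY22 and WRKY27 were higher with 2-AA, as were 7.86% of all genes, and WRKY14, WRKY29, WRKY35 and WRKY65 were not called. WRKY22 (AT4G01250) had 64.4, 84.1 and 55.3 CPM with 2-AA, 21.7, 22.1 and 15.2 CPM with flg22, and 8.70, 6.51 and 5.85 CPM in mock, with no overlap between groups. Its log2 fold change was 3.27 ± 0.19 with 2-AA against mock (adjusted p = 1.03e-08), 1.48 ± 0.19 with flg22 against mock (adjusted p = 1.97e-05) and 1.79 ± 0.18 with 2-AA against flg22 (adjusted p = 2.2e-05). WRKY29, its partner downstream of the flagellin kinase cascade, had 25.2, 32.5 and 20.4 CPM with 2-AA, 29.0, 27.0 and 17.4 CPM with flg22, and 9.14, 8.06 and 9.34 CPM in mock. The treated libraries of WRKY29 overlapped and stood above mock. It rose by 1.56 ± 0.20 with 2-AA (adjusted p = 1.32e-05) and by 1.47 ± 0.20 with flg22 (adjusted p = 2.59e-05) on the log2 scale, and the interval of the difference between treatments, -0.31 to 0.49, lay within 2-fold either way. WRKY27, a relative that affects symptoms of bacterial wilt, differed in the same direction as WRKY22, with 21.6, 18.4 and 18.5 CPM with 2-AA, 11.1, 10.1 and 9.0 CPM with flg22, and 5.79, 5.54 and 6.51 CPM in mock. The WRKY27 difference between 2-AA and flg22 was 0.96 ± 0.12 (adjusted p = 0.00012).

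In subgroup IIb, WRKY6, a regulator of senescence and of the phosphate transporter gene PHO1, had 79.8, 92.4 and 79.1 CPM with 2-AA, 38.7, 40.2 and 32.9 CPM with flg22, and 14.0, 11.3 and 18.7 CPM in mock. The 3 groups stood apart without overlap. The log2 fold change was 2.51 ± 0.15 with 2-AA against mock (adjusted p = 8.92e-09), 1.34 ± 0.14 with flg22 against mock (adjusted p = 3.62e-06) and 1.17 ± 0.14 with 2-AA against flg22 (adjusted p = 8.67e-05). Of the 8 members of IIb, 5 were higher with 2-AA and 5 with flg22 than in mock, against 31.2% and 29.8% of all genes. WRKY6 alone was called between the treatments, where 15.8% of all genes were called.

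Subgroup I includes the related genes WRKY25, WRKY26 and WRKY33, which act in heat tolerance, with WRKY33 also the main regulator of camalexin synthesis. WRKY26 had 71.5, 78.5 and 68.9 CPM with 2-AA, 43.4, 44.7 and 33.1 CPM with flg22, and 5.69, 7.12 and 9.60 CPM in mock. Its groups did not overlap, and it was the member of subgroup I with the highest fold change in each comparison with mock. It changed by 3.29 ± 0.16 with 2-AA against mock (adjusted p = 1.98e-09), 2.43 ± 0.16 with flg22 against mock (adjusted p = 3.54e-08) and 0.85 ± 0.14 with 2-AA against flg22 (adjusted p = 0.00111) on the log2 scale. WRKY33 had 60.3, 61.5 and 53.5 CPM with 2-AA, 44.9, 44.7 and 35.6 CPM with flg22, and 14.1, 13.6 and 23.2 CPM in mock. Although every 2-AA library of WRKY33 was above every flg22 library, the log2 difference of 0.49 (95% interval 0.14 to 0.83) was not called (adjusted p = 0.0569); it was called under 8 of the alternatives tried. WRKY33 was higher than in mock with both treatments, by 1.78 ± 0.17 (adjusted p = 8.08e-07) with 2-AA and 1.3 ± 0.17 (adjusted p = 1.87e-05) with flg22. Of the 11 members of subgroup I, WRKY1, WRKY20, WRKY32 and WRKY58 were called in neither comparison with mock. In this subgroup 54.5% were called with 2-AA and 63.6% with flg22 against mock, against 62.2% and 59.2% of all genes. Between the treatments 9.09% were called, against 15.8% of all genes.

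The 3 genes of subgroup IIa, WRKY18, WRKY40 and WRKY60, form a set of interacting repressors of defence. WRKY60 had 18.0, 22.6 and 16.3 CPM with 2-AA, 42.4, 36.6 and 28.5 CPM with flg22, and 12.8, 12.0 and 15.8 CPM in mock, and differed between 2-AA and flg22 by -0.92 ± 0.16 (adjusted p = 0.0015). WRKY18 had 28.0, 32.5 and 24.7 CPM with 2-AA, 40.2, 44.0 and 36.1 CPM with flg22, and 25.0, 18.9 and 28.8 CPM in mock, so that the 2-AA libraries overlapped mock and the flg22 libraries stood above. Its difference between 2-AA and flg22 was -0.50 ± 0.14 (adjusted p = 0.0295), and it was not called without flg22 replicate 1 or 2, or 2-AA replicate 1 or 3 (adjusted p between 0.0701 and 0.105), or with the replicate number as a block (adjusted p = 0.0517). WRKY40 moved the other way, with 8.71, 11.3 and 9.0 CPM with 2-AA, 7.08, 5.61 and 4.26 CPM with flg22, and 2.68, 3.71 and 5.49 CPM in mock. It was 0.77 ± 0.24 higher with 2-AA than with flg22 on the log2 scale (adjusted p = 0.0461). The WRKY40 call was lost without mock replicate 2, flg22 replicate 2 or 3, or any 2-AA library (adjusted p between 0.062 and 0.166), with the replicate block (adjusted p = 0.0772) and without the 3 libraries richest in chloroplast counts (adjusted p = 0.149). Against mock, WRKY40 rose by 1.28 ± 0.25 with 2-AA (adjusted p = 0.000494).

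All 6 members of subgroup IId, which bind calmodulin, were higher in both treatments than in mock, and 4 of them were higher with 2-AA than with flg22. Over all genes, 31.2% were higher with 2-AA and 29.8% with flg22 than in mock, and 7.86% were higher with 2-AA than with flg22. WRKY17, a negative regulator of basal resistance, had 56.6, 59.8 and 53.0 CPM with 2-AA, 32.7, 29.5 and 29.1 CPM with flg22, and 24.7, 22.4 and 21.0 CPM in mock, and differed between the treatments by 0.89 ± 0.08 (adjusted p = 1.02e-05). WRKY11, which acts redundantly with it, had 97.8, 106 and 82.0 CPM with 2-AA, 66.4, 52.6 and 44.9 CPM with flg22, and 27.4, 23.8 and 23.2 CPM in mock, a difference of 0.80 ± 0.13 (adjusted p = 0.000939). Both genes kept their 3 groups apart. WRKY39 and WRKY15 were called with smaller differences, 0.46 and 0.39 on the log2 scale, and WRKY7 and WRKY21 were not called. Per kilobase of exon, WRKY15 had the highest mean level of the family in every group, at 59.0 CPM per kilobase with 2-AA, 44.9 with flg22 and 24.7 in mock. WRKY22 ranked 3 of 56 with 2-AA, 20 with flg22 and 25 in mock by the same measure.

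**Figure D4:**
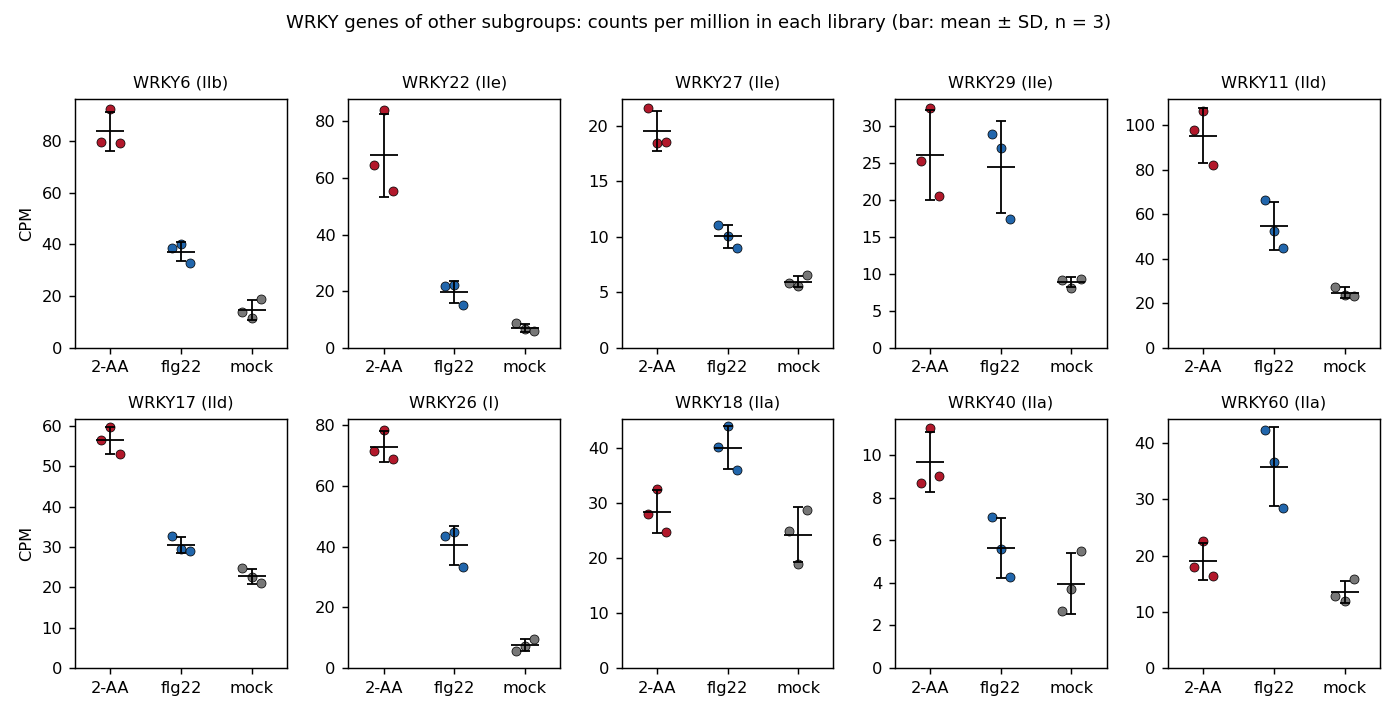
CPM (vertical axis, from 0, scaled per gene) of 10 WRKY genes outside group III in each library with 2-AA, flg22 and mock; points are libraries, the line is the mean and the bar the SD (n = 3). WRKY6, WRKY22, WRKY27, WRKY11, WRKY17, WRKY26 and WRKY40 are highest with 2-AA, WRKY18 and WRKY60 are highest with flg22, and WRKY29 overlaps between the treatments.

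Subgroup IIc, the most numerous with 13 members, held the member outside group III that was lowest with 2-AA relative to flg22. WRKY51, which with WRKY50 mediates repression of jasmonate signalling, had 1.85, 1.49 and 1.51 CPM with 2-AA, 7.38, 5.14 and 3.72 CPM with flg22, and 0.134, 0.122 and 0.329 CPM in mock. Its 3 groups did not overlap. It differed by 3.04 ± 0.41 with 2-AA against mock (adjusted p = 2.68e-05), 4.78 ± 0.39 with flg22 against mock (adjusted p = 2.86e-07) and -1.74 ± 0.30 with 2-AA against flg22 (adjusted p = 0.00172). Without mock replicate 3 the first 2 values were 3.64 and 5.38. WRKY50 was not called in any comparison, at 4.12, 6.63 and 3.61 CPM with 2-AA, 4.39, 4.23 and 4.63 CPM with flg22, and 3.88, 5.23 and 4.34 CPM in mock.

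WRKY13, known from stem development, had 1.28, 1.14 and 2.25 CPM with 2-AA, 0.492, 0.543 and 0.440 CPM with flg22, and 1.14, 1.22 and 0.789 CPM in mock. The 2-AA and mock libraries overlapped and the flg22 libraries were the lowest. It was 1.66 ± 0.38 higher with 2-AA than with flg22 (adjusted p = 0.00976), which was lost without 2-AA replicate 3 (adjusted p = 0.0525), and -1.09 ± 0.39 with flg22 against mock (adjusted p = 0.0276), which was lost without mock replicate 1 or 2 or any flg22 library (adjusted p between 0.0507 and 0.0891). WRKY8, which acts in defence against fungi and viruses, was called with 2-AA against mock at 1.63 ± 0.45 (adjusted p = 0.0068), a value of 2.33 without mock replicate 3. Elsewhere in IIc, WRKY28, WRKY45, WRKY48, WRKY57 and WRKY75 rose in both treatments by 0.81 to 1.97 on the log2 scale and were not called between them, and WRKY56 was lower with flg22 than in mock. Of the IIc members 53.8% were called with 2-AA and 61.5% with flg22 against mock, against 62.2% and 59.2% of all genes. Between the treatments 15.4% were called, against 15.8% of all genes.

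Few members stood lower in treated seedlings. WRKY44 (TTG2), needed for trichome and seed coat development, had 3.06, 1.90 and 2.13 CPM with 2-AA, 1.11, 2.39 and 3.18 CPM with flg22, and 3.82, 3.77 and 5.89 CPM in mock. Every treated library was below every mock library. The log2 fold change was -0.92 ± 0.33 with 2-AA (adjusted p = 0.0284) and -1.01 ± 0.34 with flg22 (adjusted p = 0.0194) against mock. The 2-AA call was lost without mock replicate 3 or 2-AA replicate 2 or 3 (adjusted p between 0.0805 and 0.133), and the flg22 call without mock replicate 3 (adjusted p = 0.0951) or flg22 replicate 1 (adjusted p = 0.0649). GL1, a trichome gene among the shoot markers, was at means of 0.50 CPM with 2-AA, 0.81 CPM with flg22 and 1.13 CPM in mock and was not called with 2-AA (adjusted p = 0.0517, or 0.0315 without flg22 replicate 1) or with flg22 (adjusted p = 0.388) against mock, and its part in the WRKY44 result was not tested. WRKY72, with 8.68, 9.71 and 9.93 CPM with 2-AA, 15.4, 12.8 and 10.01 CPM with flg22, and 12.4, 11.1 and 12.9 CPM in mock, was lower with 2-AA by a margin that most alternatives did not keep (-0.36 ± 0.15, adjusted p = 0.0454). WRKY56 had 0.383, 0.686 and 0.278 CPM with 2-AA, 0.197, 0.145 and 0.406 CPM with flg22, and 0.669, 1.06 and 0.592 CPM in mock, and was lower with flg22 than in mock (-1.62 ± 0.54, adjusted p = 0.0201). That call was lost without mock replicate 2 or flg22 replicate 1 or 2 (adjusted p between 0.0717 and 0.0953).

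Between the treatments 36 members were not called. For 28 of these the 95% interval of the difference lay within 2-fold either way. For the other 8, WRKY8, WRKY12, WRKY31, WRKY42, WRKY43, WRKY56, WRKY58 and WRKY61, the interval reached past 2-fold, so a difference of that size was not excluded. The 10 members called in neither comparison with mock were WRKY1, WRKY12, WRKY20, WRKY23, WRKY32, WRKY35, WRKY36, WRKY43, WRKY50 and WRKY58. WRKY1 and WRKY20 were among the steadiest of these, with 34.3 to 36.1 and 40.5 to 46.1 CPM with 2-AA, 32.9 to 35.6 and 41.2 to 45.7 CPM with flg22, and 31.8 to 33.3 and 40.6 to 42.7 CPM in mock. WRKY1 shares 166 exon bases with AT2G04890 on the opposite strand. That gene had means of 15.4 CPM with 2-AA, 13.9 CPM with flg22 and 8.94 CPM in mock, and was called higher than in mock with both treatments.

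Genes around the family were examined as lists of the kinase cascade upstream, of protein partners and of described targets. Of 9 cascade genes, MKK1, MPK3 and MPK11 were higher in each treatment than in mock and the other 6 were not called. The share called was 33.3% in each comparison, against 62.2% of all genes with 2-AA and 59.2% with flg22. MPK3 rose by 1.16 ± 0.08 with 2-AA (adjusted p = 6.6e-08) and 1.01 ± 0.08 with flg22 (adjusted p = 3.07e-07), and MPK11 by 2.51 ± 0.33 and 2.09 ± 0.33 on the log2 scale. Between 2-AA and flg22, edgeR, DESeq2 and limma-voom called 0 of the 9, with 2 at an unadjusted p under 0.05, and MPK4 was called without flg22 replicate 1 (0.35 on the log2 scale, adjusted p = 0.0111) or 2-AA replicate 3 (adjusted p = 0.0448), with robust dispersions (adjusted p = 0.0461) and with no filter on low counts (adjusted p = 0.0484). Of 5 VQ-motif proteins, which bind WRKY proteins, 4 were tested: 4 were higher with 2-AA and 3 with flg22 than in mock, where 31.2% and 29.8% of all genes were higher. Between the treatments 2 of the 4 were higher with 2-AA, against 7.86% of all genes, and leaving out each library gave 1 to 3. SIB1, a partner of WRKY33, was 1.08 ± 0.31 higher with 2-AA than with flg22 (adjusted p = 0.0311), a call lost with robust dispersions (adjusted p = 0.104), under the DESeq2 Wald test (adjusted p = 0.126) and without flg22 replicate 2 or 3 or 2-AA replicate 1 or 2 (adjusted p between 0.0519 and 0.126). MKS1, which links MPK4 to WRKY33, was 0.80 ± 0.17 higher with 2-AA than with flg22 (adjusted p = 0.00703), a call lost without the 3 libraries richest in chloroplast counts (adjusted p = 0.0718). SIB2 was listed at 0 in every library.

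Of 16 genes described in the literature as WRKY targets, 13 were tested, of which 8 were called higher and 1 lower for 2-AA against mock, and 9 higher and 1 lower for flg22 against mock. These are 69.2% and 76.9% of the tested targets, against 62.2% and 59.2% of all genes. Between the treatments 3 of the 13 were called (23.1%, against 15.8% of all genes), or 5 without flg22 replicate 1. FRK1, the flagellin marker kinase gene activated by WRKY22 and WRKY29, averaged 203 CPM with 2-AA, 143 CPM with flg22 and 2.46 CPM in mock, and its difference between treatments of 0.51 ± 0.26 was not called (adjusted p = 0.216), though it was without flg22 replicate 1 (0.85, adjusted p = 0.0329). ACS6, an ethylene synthesis gene and target of WRKY33, was higher with 2-AA than with flg22 by 1.27 ± 0.15 (adjusted p = 8.83e-05). CYP71A12, an enzyme of indole defence compounds, was lower with 2-AA than with flg22 (-1.63 ± 0.22, adjusted p = 0.000273) and higher than in mock in both.

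PR1, the salicylic acid marker downstream of WRKY70, had 0.255, 0.0381 and 2.00 CPM with 2-AA, 13.7, 5.35 and 11.5 CPM with flg22, and 0.0669, 0.243 and 1.78 CPM in mock. Like WRKY70 it overlapped between 2-AA and mock and stood higher in every flg22 library, with a log2 difference of -3.67 ± 0.85 between 2-AA and flg22 (adjusted p = 0.0101). Without 2-AA replicate 3 that difference was -6.01 (adjusted p = 0.00171), and with robust dispersions it was not called (adjusted p = 0.0947). Against mock, PR1 was 3.88 ± 0.86 higher with flg22 (adjusted p = 0.00169), or 5.98 without mock replicate 3, and 0.20 ± 0.99 with 2-AA (adjusted p = 0.872), or 2.82 (adjusted p = 0.0196) without the 3 chloroplast-rich libraries. ICS1, the salicylic acid synthesis gene, rose in both treatments, by 0.97 ± 0.24 with 2-AA (adjusted p = 0.00342, or 0.0553 without the 3 chloroplast-rich libraries) and 1.13 ± 0.24 with flg22 (adjusted p = 0.00134). PAD3, the last enzyme of camalexin synthesis and a target of WRKY33, averaged 2.26 CPM with 2-AA, 1.98 CPM with flg22 and 2.88 CPM in mock and was not called in any comparison. CYP71A13 and JAZ8 had too few counts to be tested, and MYC2 was listed at 0 in every library.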

How the data were processed

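The authors deposited 1 table of raw counts per locus for 9 libraries. Per the submitters' processing notes, Trimmomatic 0.36, HISAT2, edgeR and TAIR10 were used. The counting tool and its use of strand are not stated here. Genes on the opposite strand share exon bases with WRKY1, WRKY2, WRKY4, WRKY9, WRKY29, WRKY33, WRKY40, WRKY41, WRKY53 and WRKY61. Reads from those shared bases may not be told apart. Per the labels' protocols, total RNA went into TruSeq libraries.

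All 9 libraries entered 1 group-means fit with edgeR 4.0.16 in R 4.3.3 (filterByExpr with a minimum count of 10, TMM, glmQLFit and glmQLFTest, Benjamini-Hochberg over 21059 genes), which leaves 6 residual degrees of freedom. Fold changes of genes at 0 counts are bounds on a floor of 3 counts per group, and counting intervals and floors cover counting error only. limma 3.58.1 and DESeq2 1.42.0 were alternatives, with other filters and libraries left out; those for the list genes were added after seeing the data. Replicate numbers were not used to pair the libraries in the main fit. Same-numbered libraries correlated between -0.207 and 0.266 in their deviations from group means. Libraries with different numbers were not compared in this way, so these values cannot exclude pairing. No 2 libraries of a group agreed within sampling noise. On simulated data for 2-AA against mock (20852 genes), 88 of 100 genes changed 2-fold and 71 of 100 changed 1.5-fold were recovered, with 7 false calls. The simulation changed only 200 genes and gave all genes the same spread. Recovery in the real comparison, where 62.2% of all genes were called, may therefore differ.

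Exon lengths, gene starts and upstream windows come from the RefSeq annotation of TAIR10.1, in which 32548 loci of the table were found. Members and gene lists were chosen with earlier results of these data known. Members described library by library were those with the 4 strongest calls in each direction against mock (mean of at least 1 CPM, no overlap of libraries), those called and at least 2-fold apart between treatments, all of group III and subgroup IIa, WRKY22, WRKY29 and WRKY33. WRKY1, WRKY8, WRKY11, WRKY17, WRKY20, WRKY27, WRKY50 and WRKY56 were named outside that rule after their values were seen.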

Additional observations from a re-analysis of the deposited data

How the results depend on the processing

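The counts of members higher against mock were stable: 31 to 35 with 2-AA (34 in the result) and 34 to 39 with flg22 (37 in the result) when each library was left out, and 26 and 26 when tested against a 1.5-fold change. No member changed sign while called. The counts of lower members rested on few genes. With 2-AA against mock (2 in the result) there was 1 under DESeq2 size factors, the DESeq2 Wald test, limma-voom, a replicate block and a term for the 3 chloroplast-rich libraries, 0 without those 3 libraries and 0 against 1.5-fold, with 0 to 2 when each library was left out. With flg22 against mock (3 in the result) there was 1 without those 3 libraries and 0 against 1.5-fold, with 0 to 3 when each library was left out. Between 2-AA and flg22 (11 higher and 7 lower in the result), 5 were higher and 5 lower against 1.5-fold, and leaving out each library gave 10 to 13 higher and 6 to 9 lower. With the replicate block the counts were 34 higher and 1 lower, 37 higher and 3 lower, and 11 higher and 6 lower; WRKY18 and WRKY40 lost their calls between the treatments. For each of these changes the cause was not tested. Of the calls, 30 of 36, 34 of 40 and 15 of 18 held whichever single library was left out. Depth limits the genes under the filter, WRKY41 and WRKY55, and the values of WRKY38 and WRKY62.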
